A study of Mus musculus with 24 samples.

Results

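The livers of mice given extracellular vesicles (EVs, membrane-bound particles that cells release) labelled as coming from MDA-MB-231 cells were compared with the livers of mice given EVs labelled MCF10A/miR-122. The members are whole RNA-seq libraries, chosen by their treatment label: 6 libraries labelled MDA-MB-231 EV and 6 labelled MCF10A/miR-122 EV, 12 of the 24 libraries in the series. MDA-MB-231 is a human breast cancer line and MCF10A a non-tumorigenic human breast epithelial line. The label MCF10A/miR-122 pairs MCF10A with miR-122, a microRNA, and the labels do not say how these cells were made. All 12 mice were female NOD scid gamma (NSG) mice, 8 weeks old per the labels. About 10 µg of EVs went into a tail vein at each injection, with 2 injections per week over 5 weeks. The livers were taken 2 days after the last of them. The other 12 libraries, 6 labelled MCF10A EV on the same schedule and 6 given phosphate-buffered saline (PBS), were in neither group compared. They were part of the fit and added to its estimate of the spread, so they bear on every p-value of that fit. Their levels are given only for orientation. NSG mice lack T, B and natural killer cells and have defective macrophages and dendritic cells, which limits them as a model of an inflamed liver.

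The names of the libraries exchange the 2 identities. The 6 libraries labelled MDA-MB-231 EV carry names of the MCF10A/miR-122 kind. The 6 labelled MCF10A/miR-122 EV carry names of the MDA-MB-231 kind. Groups are called here by their labels. If the library names were right, every fold change below would keep its size and turn its sign, and every level would belong to the other kind of EV. Which of the 2 sources is right was not tested here.

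The hepatic acute phase response is a change in plasma protein synthesis in which hepatocytes answer cytokines, above all interleukin 6 and interleukin 1, through STAT3, NF-κB and C/EBP transcription factors. Serum amyloid A proteins are its most inducible products in the mouse: Saa1 and Saa2 are made by hepatocytes and carried on high-density lipoprotein, Saa3 is made by macrophages and other cells as well, and Saa4 is made constitutively. Kupffer cells, the resident macrophages of the liver sinusoids, carry Cd5l, Emr1 (F4/80), Vsig4, Marco and Clec4f.

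The libraries held 29.2 to 32 M (mega) counts in the labelled MDA-MB-231 EV group and 26.8 to 33.7 M counts in the labelled MCF10A/miR-122 EV group. On the first principal component of the 12 libraries, which held 23.8% of the variance, the groups overlapped. On the second, which held 18.5%, 5 of the 6 labelled MCF10A/miR-122 EV libraries lay above every labelled MDA-MB-231 EV library, and replicate 4 lay within their range. Among cell type markers, hepatocyte genes gave summed levels of 182570 to 193880 CPM (counts scaled to library size by the cpm function of edgeR) in labelled MDA-MB-231 EV livers and 175220 to 207090 CPM in labelled MCF10A/miR-122 EV livers. Of 21 lymphocyte markers, 17 had under 10 counts in all 12 libraries, and Ms4a1 and Ncr1 had 0.

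Of 13773 genes tested, 35 differed between the groups at an adjusted p under 0.05 (0.254%), 6 higher in labelled MDA-MB-231 EV livers (0.0436%) and 29 lower (0.211%). At an unadjusted p under 0.05 there were 1128 genes (8.19%), 529 higher (3.84%) and 599 lower (4.35%). Of the 35 called genes, each had its direction in 6 of 6 labelled MDA-MB-231 EV libraries against the median of the other group, and 20 had groups of 6 that did not overlap, against 101 of all genes tested (0.733%). The genes were called on these same libraries, so direction and lack of overlap follow largely from that choice. They are no separate support, and the direction was not counted over all genes. The median log2 fold change of all genes tested was 0.00166. For 9 of the 35 genes the labelled MCF10A/miR-122 EV libraries lay above all 18 other libraries of the series, and for 3 below all 18, whereas labelled MDA-MB-231 EV libraries did so for 0. How many of all genes tested lay apart in this way was not counted. These counts therefore have no background to be read against and describe the called genes only. In whole liver, fewer cells of a type and less RNA per cell cannot be told apart. The count of 35 fell to 13 without MCF10A/miR-122 EV replicate 3, to 17, 18 and 19 without MDA-MB-231 EV replicates 2, 3 and 5, and to 21 without MCF10A/miR-122 EV replicate 6. It rose to 82 and 54 without MCF10A/miR-122 EV replicates 4 and 5.

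**Figure D1:**
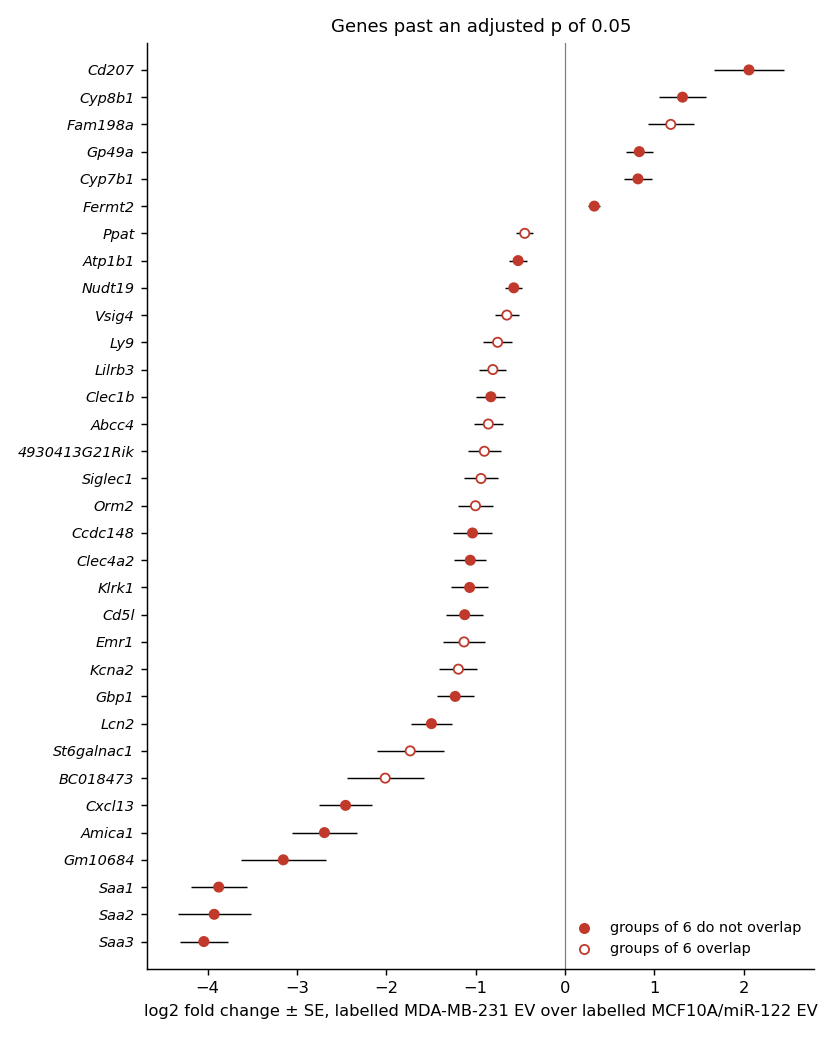
The 33 of 35 genes reported here past an adjusted p of 0.05, ordered by log2 fold change of labelled MDA-MB-231 EV over labelled MCF10A/miR-122 EV livers (horizontal axis; bars are ± SE of the fit; filled points have groups of 6 that do not overlap). Saa1, Saa2 and Saa3 lie near a log2 fold change of -4, below the other called genes, and 6 genes lie above 0.

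The strongest difference was in serum amyloid A. In livers given labelled MDA-MB-231 EVs, Saa1, Saa2 and Saa3 stood 14.7, 15.2 and 16.5 times lower than in livers given labelled MCF10A/miR-122 EVs, while Saa4 stood at 237 ± 31.6 CPM against 243 ± 25.4 CPM (mean ± SD, n = 6 each). Saa1 was at 35.3, 33.3, 80.6, 26.2, 23.2 and 32.8 CPM in replicates 1 to 6 of labelled MDA-MB-231 EV, against 339, 689, 540.4, 824, 440.5 and 563 CPM in those of labelled MCF10A/miR-122 EV (log2 fold change -3.87, SE 0.31, adjusted p = 3.21e-08). MDA-MB-231 EV replicate 3 was the highest of its group, and it still lay well under the lowest library of the other. Saa2 was at 20, 19.7, 56.8, 15.8, 12.1 and 18.1 CPM in labelled MDA-MB-231 EV livers. Saa2 stood at 189.8, 496, 277, 561, 257 and 385 CPM in labelled MCF10A/miR-122 EV livers (log2 fold change -3.93, SE 0.41, adjusted p = 4.24e-06). Saa3 was at 3.73, 4.54, 4.87, 3.27, 2.8 and 5.23 CPM in the 6 labelled MDA-MB-231 EV livers. Saa3 stood at 25.7, 97.1, 67.4, 112, 54.7 and 45.5 CPM in the 6 labelled MCF10A/miR-122 EV livers (log2 fold change -4.04, SE 0.27, adjusted p = 9.75e-10). For each of the 3 genes MCF10A/miR-122 EV replicate 4 was the highest and replicate 1 the lowest of their group, and the groups did not overlap. All 3 stayed called in every fit that left out 1 of the 12 libraries, with log2 fold changes of -4.23 to -3.74 for Saa1, -4.40 to -3.76 for Saa2 and -4.21 to -3.84 for Saa3.

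Saa4 was the member that did not pass (log2 fold change -0.04, SE 0.09, adjusted p = 0.966). It was at 253, 282, 194, 245, 239 and 208 CPM in labelled MDA-MB-231 EV livers. Saa4 stood at 290.3, 219.9, 223, 237, 244 and 243 CPM in labelled MCF10A/miR-122 EV livers, and the groups overlapped. Saa1 in the other 12 livers was at 25.4 to 53.7 CPM with MCF10A EVs and 16.2 to 49.9 CPM with PBS. Saa3 was at 2.79 to 4.82 CPM with MCF10A EVs and 3.42 to 5.75 CPM with PBS. The high Saa1, Saa2 and Saa3 levels were found in 1 of the 4 groups. Saa1 and Saa2 share 45.7% and 43.4% of their 32-base words with other genes, so reads could have been split between them, whereas Saa3 shares 7.29% and Saa4 1.53%.

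The promoters of the 4 serum amyloid A genes are shown because 3 of the genes differed together and the fourth did not. Each runs over 300 bases, from 250 before to 50 after the annotated start, from RefSeq on GRCm38.p6, a later build than the one behind the counts. Capitals mark matches to TTGCNNAA, a C/EBP-type motif searched on both strands.
Saa1, chr7:46742931-46743230, minus strand: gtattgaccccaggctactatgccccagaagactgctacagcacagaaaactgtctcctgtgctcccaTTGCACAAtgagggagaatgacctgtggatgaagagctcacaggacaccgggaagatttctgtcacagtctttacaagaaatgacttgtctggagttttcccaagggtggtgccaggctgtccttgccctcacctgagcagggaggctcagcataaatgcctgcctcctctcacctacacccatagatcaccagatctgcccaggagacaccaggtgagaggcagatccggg
Saa2, chr7:46751583-46751882, plus strand: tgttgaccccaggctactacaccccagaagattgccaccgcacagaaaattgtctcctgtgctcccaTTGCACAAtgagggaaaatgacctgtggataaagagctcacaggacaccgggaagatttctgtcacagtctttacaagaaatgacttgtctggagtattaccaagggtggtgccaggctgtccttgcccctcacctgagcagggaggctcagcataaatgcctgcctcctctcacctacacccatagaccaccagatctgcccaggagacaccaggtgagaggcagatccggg
Saa3, chr7:46715627-46715926, minus strand: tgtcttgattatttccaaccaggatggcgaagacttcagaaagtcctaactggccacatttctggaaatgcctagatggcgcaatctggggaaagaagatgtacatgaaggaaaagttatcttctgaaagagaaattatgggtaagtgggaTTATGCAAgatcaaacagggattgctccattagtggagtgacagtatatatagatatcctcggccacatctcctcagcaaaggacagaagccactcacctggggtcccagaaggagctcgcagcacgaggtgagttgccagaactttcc
Saa4, chr7:46732554-46732853, minus strand: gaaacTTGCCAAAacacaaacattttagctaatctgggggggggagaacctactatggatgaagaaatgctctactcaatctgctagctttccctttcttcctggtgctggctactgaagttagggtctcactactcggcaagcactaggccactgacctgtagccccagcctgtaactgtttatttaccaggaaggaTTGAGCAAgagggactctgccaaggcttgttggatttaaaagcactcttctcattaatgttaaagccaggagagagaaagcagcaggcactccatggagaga
The Saa1 and Saa2 promoters were 95.3% identical, and the other pairs 48.4% to 54.2%. The motif began at -182 from the start in Saa1, at -183 in Saa2 and at -99 in Saa3, where it lies on the opposite strand. Saa4, which did not pass, had 2 matches, at -245 and, also on the opposite strand, at -52. Of 32851 promoters of this length, 10.8% held a match. TTCNNNGAA, a STAT-type motif found in 8.3% of promoters, and the NF-κB consensus, found in 8.46%, matched in none of the 4 windows, and no match overlapped another motif. These are matches of letters and not sites shown to be bound.

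Of the acute phase genes outside the serum amyloid A family, few passed. Of 34 tested, 0 were higher and 2 were lower, Lcn2 and Orm2, with 1 higher and 7 lower at an unadjusted p under 0.05 and a list median log2 fold change of 0.01. Lcn2, which encodes the siderophore-binding protein lipocalin 2, was at 9.16, 8.53, 20.2, 8.41, 11 and 13 CPM in labelled MDA-MB-231 EV livers. Lcn2 stood at 23, 42.4, 27.8, 50.7, 23.8 and 30.4 CPM in labelled MCF10A/miR-122 EV livers (log2 fold change -1.49, SE 0.22, adjusted p = 0.00122). MDA-MB-231 EV replicate 3, the highest of its group also for Saa1 and Saa2, came closest to the other group without reaching it, and the call held in all 12 fits that left out a library. With MCF10A EVs Lcn2 was at 14.5 to 24.7 CPM and with PBS at 5.94 to 12.1 CPM, so the MCF10A EV levels overlapped both groups compared. Orm2, an alpha-1-acid glycoprotein gene that shares 33.3% of its 32-base words with other genes, was at 100.5, 145, 173, 99.8, 121.8 and 186 CPM in labelled MDA-MB-231 EV livers. Orm2 stood at 165, 271, 335, 374, 302 and 209 CPM in labelled MCF10A/miR-122 EV livers (log2 fold change -1.0, SE 0.19, adjusted p = 0.0181). Its groups overlapped through MCF10A/miR-122 EV replicate 1, and its call was lost without MDA-MB-231 EV replicate 5 and without MCF10A/miR-122 EV replicate 3 (adjusted p = 0.0542 to 0.0643), and also in the fit of the 12 libraries alone (adjusted p = 0.068) and without MDA-MB-231 EV replicates 1 and 5 together (adjusted p = 0.15). The promoters of Lcn2 and Orm2 each held 1 C/EBP-type match, at -216 and -120, with no match to the STAT-type motif or the NF-κB consensus.

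The hemoglobin and heme scavengers stayed short of the threshold. Hpx, the hemopexin gene, was at 3231 ± 155 CPM in labelled MDA-MB-231 EV livers and 4269.8 ± 666 CPM in labelled MCF10A/miR-122 EV livers (log2 fold change -0.40, SE 0.11, adjusted p = 0.145), and haptoglobin (Hp, chosen after its values were seen) had a log2 change of -0.37 (adjusted p = 0.177). DESeq2 called both (adjusted p = 0.0291 for Hpx and 0.0333 for Hp). The metallothionein gene Mt2 was at 20.8, 8.25, 19.8, 20.6, 42 and 26.8 CPM in labelled MDA-MB-231 EV livers. Mt2 stood at 61.3, 59.1, 198, 105, 41.3 and 75.4 CPM in labelled MCF10A/miR-122 EV livers (log2 fold change -1.97, SE 0.50, adjusted p = 0.111), and its neighbour Mt1 had -1.55 (adjusted p = 0.228). DESeq2 called Mt2 (adjusted p = 0.0247). MCF10A/miR-122 EV replicate 3 was the highest for both. Trem1, a receptor that amplifies myeloid inflammation, ran the other way, at 1.27, 0.756, 1.29, 0.641, 0.891 and 1.31 CPM in labelled MDA-MB-231 EV livers. Trem1 stood at 0.13, 0.289, 0.571, 0.103, 0.191 and 0.36 CPM in labelled MCF10A/miR-122 EV livers (log2 fold change 1.87, SE 0.44, adjusted p = 0.0903), with groups that did not overlap, and passed in the fit of the 12 libraries alone (adjusted p = 0.0441).

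**Figure D2:**
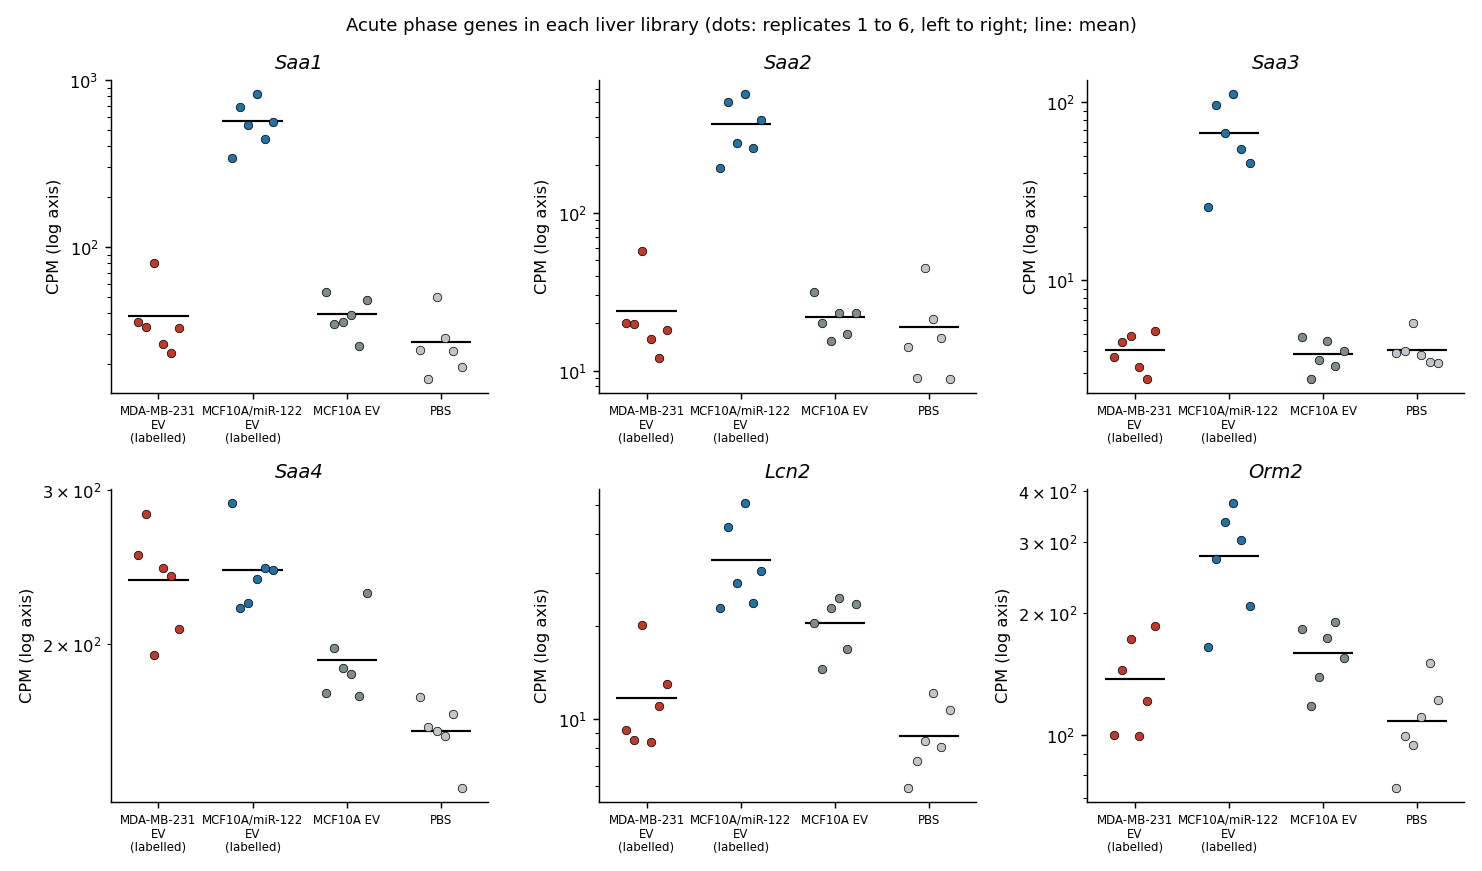
CPM of 6 acute phase genes in each of the 24 libraries on log axes (dots are replicates 1 to 6 from left to right, lines are group means), with labelled MDA-MB-231 EV at the left and labelled MCF10A/miR-122 EV beside it. Saa1, Saa2 and Saa3 are high in the labelled MCF10A/miR-122 EV libraries alone, Lcn2 and Orm2 are less far apart, and Saa4 overlaps between the groups compared.

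Genes of the plasma proteins that fall in an acute phase response did not pass the test. Of 14 such negative acute phase genes, 0 were called by edgeR, by DESeq2 or by limma-voom, and 0 had an unadjusted p under 0.05 (median log2 fold change 0.01). Of 27 cytokine receptor and signalling genes 0 were called by any of the 3 tools, with 0 higher and 1 lower at an unadjusted p under 0.05 (median -0.12). That 1 was Cebpb, a C/EBP transcription factor gene of the acute phase response, at 66.3 ± 19.9 CPM in labelled MDA-MB-231 EV livers and 104 ± 31.5 CPM in labelled MCF10A/miR-122 EV livers (log2 fold change -0.65, SE 0.25, adjusted p = 0.414). The interleukin 1 receptor gene Il1r1 had a log2 change of -0.33 (adjusted p = 0.636) and the tumour necrosis factor receptor gene Tnfrsf1b -0.44 (adjusted p = 0.631). Of 18 tested factors reported to prepare organs for metastases, 0 were higher and 3 were lower, Saa1, Saa3 and Lcn2, which belong to the acute phase lists as well. Vcam1, an adhesion molecule of endothelium and Kupffer cells on the same list, was at 16.7 ± 5.79 CPM in labelled MDA-MB-231 EV livers and 31.7 ± 14.7 CPM in labelled MCF10A/miR-122 EV livers (log2 fold change -0.92, SE 0.27, adjusted p = 0.2), and passed without MCF10A/miR-122 EV replicate 4 (adjusted p = 0.0456).

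Macrophage genes were lower in labelled MDA-MB-231 EV livers where they passed. Of 35 macrophage markers tested, 0 were higher and 3 were lower (Cd5l, Emr1 and Vsig4), and at an unadjusted p under 0.05 there were 1 higher and 18 lower, with a median log2 fold change of -0.28 against 0.00166 over all genes. Cd5l, a secreted macrophage protein that inhibits apoptosis, was at 43.5, 28, 26.5, 49.7, 50.7 and 40.3 CPM in labelled MDA-MB-231 EV livers. Cd5l stood at 90.6, 78.4, 155, 54.3, 57.6 and 83.8 CPM in labelled MCF10A/miR-122 EV livers (log2 fold change -1.12, SE 0.21, adjusted p = 0.0161). The groups did not overlap, and MCF10A/miR-122 EV replicate 3 stood far above the rest. Emr1, the F4/80 antigen of tissue macrophages, was at 8.86, 4.54, 5.73, 6.85, 7.63 and 7.8 CPM in labelled MDA-MB-231 EV livers. Emr1 stood at 17.8, 16.9, 25.8, 6.33, 7.93 and 15.8 CPM in labelled MCF10A/miR-122 EV livers (log2 fold change -1.13, SE 0.24, adjusted p = 0.0373). Replicates 4 and 5 of the labelled MCF10A/miR-122 EV group fell within the range of the other group. Vsig4, the complement receptor by which Kupffer cells take up opsonized particles, was at 19.7, 13.6, 14.3, 19.3, 18.8 and 20.9 CPM in labelled MDA-MB-231 EV livers. Vsig4 stood at 28.6, 25, 42.2, 20.6, 23.2 and 27.9 CPM in labelled MCF10A/miR-122 EV livers (log2 fold change -0.65, SE 0.14, adjusted p = 0.0337).

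Further myeloid receptor genes, outside the marker list, were called in the same direction. Siglec1, the sialic acid receptor CD169 of resident macrophages, was at 13.9, 7.81, 8.87, 11.6, 8.71 and 9.04 CPM in labelled MDA-MB-231 EV livers. Siglec1 stood at 22.6, 20.4, 28.1, 10.1, 13.5 and 20.2 CPM in labelled MCF10A/miR-122 EV livers (log2 fold change -0.94, SE 0.19, adjusted p = 0.0214). Clec4a2, an inhibitory lectin receptor of myeloid cells, was at 1.17, 0.756, 0.695, 1.11, 1.15 and 1.13 CPM in labelled MDA-MB-231 EV livers. Clec4a2 stood at 2.31, 1.79, 2.95, 1.51, 2.06 and 1.95 CPM in labelled MCF10A/miR-122 EV livers (log2 fold change -1.06, SE 0.18, adjusted p = 0.00439), with no overlap. The inhibitory receptor Lilrb3 (PIR-B), which shares 43.3% of its 32-base words with other genes, was at 5.11 to 7.8 CPM in labelled MDA-MB-231 EV livers. Lilrb3 stood at 5.99 to 14.5 CPM in labelled MCF10A/miR-122 EV livers (log2 fold change -0.81, SE 0.15, adjusted p = 0.0161). Clec1b, the podoplanin receptor CLEC-2 of platelets and Kupffer cells, was at 2.27 to 4.1 CPM in labelled MDA-MB-231 EV livers. Clec1b stood at 4.14 to 5.97 CPM in labelled MCF10A/miR-122 EV livers (log2 fold change -0.83, SE 0.16, adjusted p = 0.0181). Its exons overlap those of Clec9a on the same strand, so its counts may hold reads of that gene.

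Most of these calls were lost in some of the 12 fits that left out 1 library, and the fit of the 12 libraries alone called 0 macrophage markers, with 2 higher and 13 lower at an unadjusted p under 0.05 (median log2 fold change -0.29). DESeq2 called 5 of them lower and limma-voom 2. Cd5l lost its call without MDA-MB-231 EV replicates 2 and 3 and without MCF10A/miR-122 EV replicate 3 (adjusted p = 0.0503 to 0.0556), and also in the fit of the 12 libraries alone (adjusted p = 0.0995). Emr1 lost its call without MDA-MB-231 EV replicates 2, 3, 4, 5 and 6 and without MCF10A/miR-122 EV replicates 1, 2, 3 and 6 (adjusted p = 0.0503 to 0.134), and also in the fit of the 12 libraries alone (adjusted p = 0.197), without MDA-MB-231 EV replicates 1 and 5 together (adjusted p = 0.0816) and in limma-voom (adjusted p = 0.117). Vsig4 lost its call without MDA-MB-231 EV replicates 2, 3 and 5 and without MCF10A/miR-122 EV replicates 1, 3 and 6 (adjusted p = 0.0681 to 0.129), and also in the fit of the 12 libraries alone (adjusted p = 0.167) and without MDA-MB-231 EV replicates 1 and 5 together (adjusted p = 0.0854). Siglec1 lost its call without MDA-MB-231 EV replicates 2, 3 and 5 and without MCF10A/miR-122 EV replicates 1, 2, 3 and 6 (adjusted p = 0.0517 to 0.0848), and also in the fit of the 12 libraries alone (adjusted p = 0.124). Lilrb3 lost its call without MDA-MB-231 EV replicates 2 and 3 and without MCF10A/miR-122 EV replicate 3 (adjusted p = 0.0503 to 0.0569), and also in the fit of the 12 libraries alone (adjusted p = 0.121). Clec1b lost its call without MDA-MB-231 EV replicates 2, 3 and 4 and without MCF10A/miR-122 EV replicates 1, 3 and 6 (adjusted p = 0.0509 to 0.073), and also in the fit of the 12 libraries alone (adjusted p = 0.0629). Clec4a2 stayed called in all 12 such fits. Without MCF10A/miR-122 EV replicate 3, 0 macrophage markers were called and 9 were lower and 2 higher at an unadjusted p under 0.05 (median log2 fold change -0.13). Without MCF10A/miR-122 EV replicate 4, 6 were called lower (median -0.37).

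Other Kupffer cell markers differed less or not past the threshold. Marco, a scavenger receptor, was at 12.8, 7.24, 6.95, 18.2, 15.8 and 17 CPM in labelled MDA-MB-231 EV livers. Marco stood at 27.4, 22.9, 50.8, 20.1, 15.8 and 22.8 CPM in labelled MCF10A/miR-122 EV livers (log2 fold change -1.04, SE 0.25, adjusted p = 0.0903), and passed without MCF10A/miR-122 EV replicate 4 (adjusted p = 0.048) or 5 (adjusted p = 0.0394) and in DESeq2 (adjusted p = 0.00912). Clec4f, a lectin particular to mouse Kupffer cells, had a log2 change of -0.34 (SE 0.15, adjusted p = 0.533), Timd4, a phosphatidylserine receptor, -0.28 (adjusted p = 0.757), the complement component C1qa -0.28 (adjusted p = 0.588), Csf1r, the receptor of macrophage colony-stimulating factor, -0.34 (adjusted p = 0.491) and Cd68 -0.25 (adjusted p = 0.725). Lyz2, the lysozyme gene of macrophages and neutrophils, had a positive value, 0.41 (adjusted p = 0.671). The marker that was higher at an unadjusted p under 0.05 was Lyz1, named after its values were seen (log2 fold change 0.58, SE 0.24, adjusted p = 0.471).

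**Figure D3:**
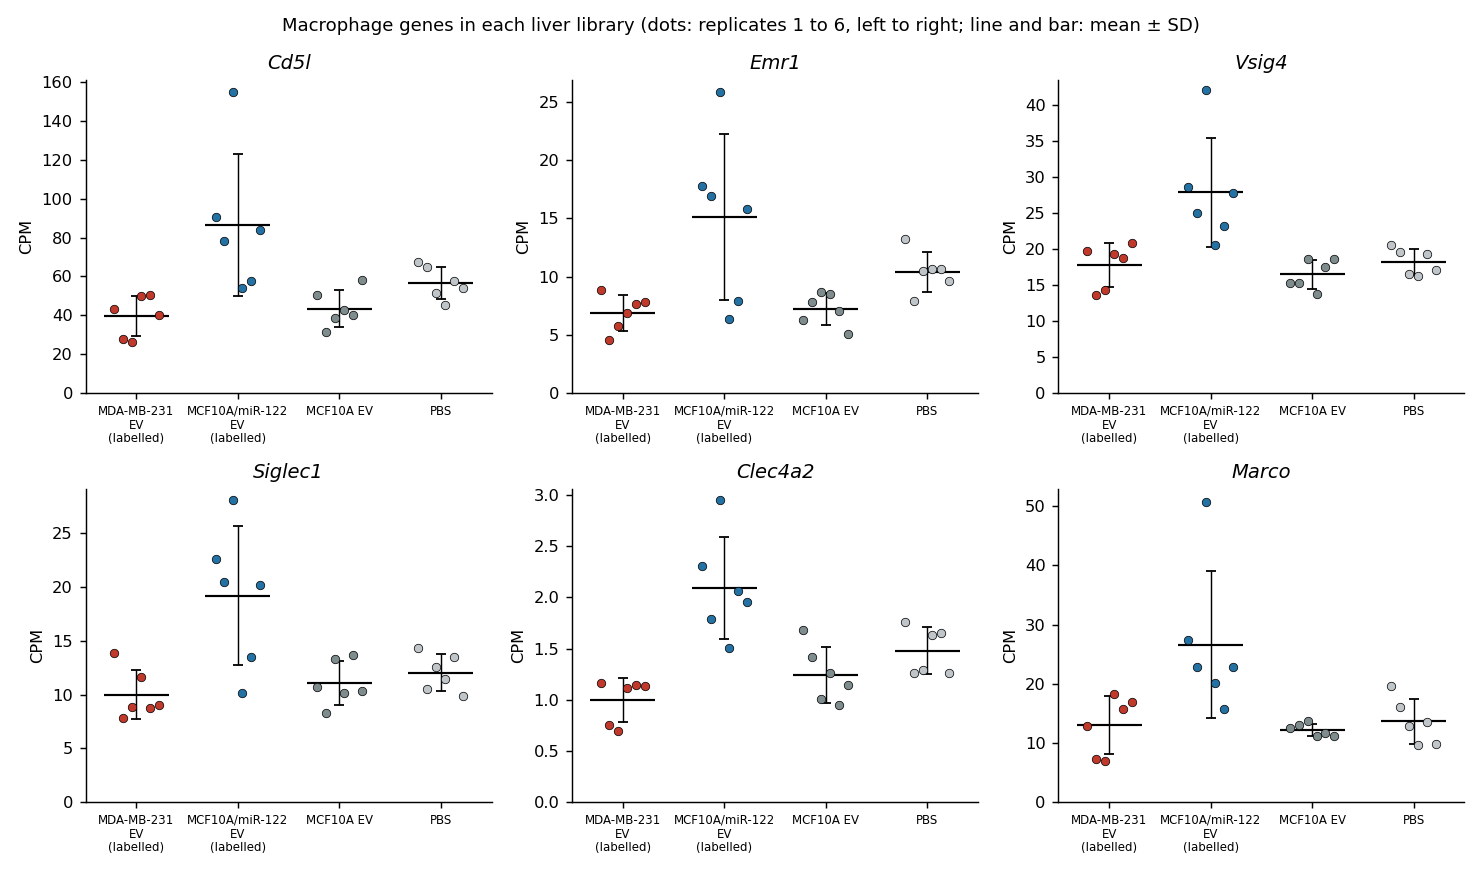
CPM of 6 macrophage genes in each of the 24 libraries (dots are replicates 1 to 6 from left to right, lines and bars are mean ± SD), with labelled MDA-MB-231 EV at the left and labelled MCF10A/miR-122 EV beside it. In the labelled MCF10A/miR-122 EV group replicate 3 is the highest for all 6 genes. Replicates 4 and 5 lie near or within the other groups for the genes other than Clec4a2, for which the groups compared do not overlap.

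The levels of macrophage genes varied together within the labelled MCF10A/miR-122 EV group. Replicate 3 was the highest of its 6 libraries for 27 of the 35 markers and replicate 4 the lowest for 24. In the labelled MDA-MB-231 EV group replicate 3 was the lowest for 20 and replicate 2 for 11. The summed level of the markers was 1071, 854, 815, 975, 976 and 986 CPM in replicates 1 to 6 of labelled MDA-MB-231 EV, against 1208, 1081, 1624, 904, 910.4 and 1182 CPM in those of labelled MCF10A/miR-122 EV, and these sums overlapped. Serum amyloid A followed another order: Saa1 was highest in MCF10A/miR-122 EV replicate 4, where Cd5l was lowest, and in MDA-MB-231 EV replicate 3, where Cd5l was lowest as well. Replicate 3 of labelled MCF10A/miR-122 EV, with 155 CPM of Cd5l, had 540.4 CPM of Saa1, the fourth of 6.

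**Figure D4:**
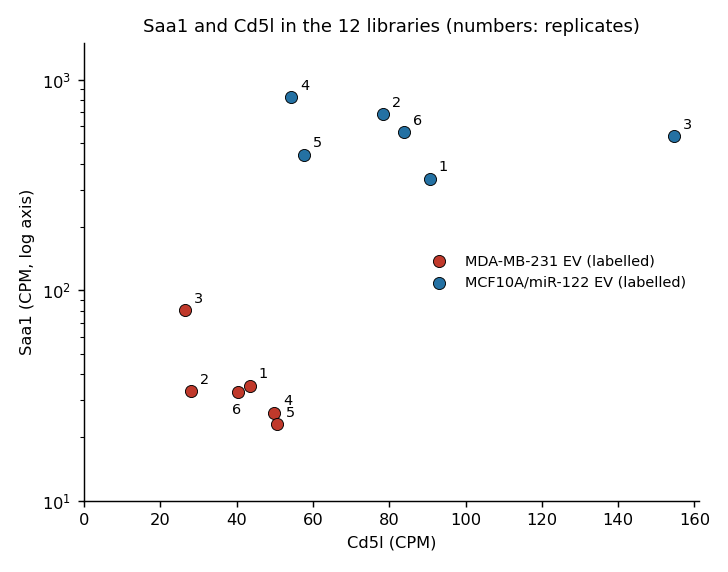
Saa1 (CPM, log axis) against Cd5l (CPM) in the 12 libraries, each numbered by its replicate. The groups separate on both axes, and within each group the library with the highest Saa1 has the lowest Cd5l.

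Markers of other cell types were compared beside these. Sinusoidal endothelial markers had 0 of 23 called (0 higher and 1 lower at an unadjusted p under 0.05, median -0.093, 0 by DESeq2 and 0 by limma-voom). The 1 was Ehd3, at 37.1 ± 6.9 CPM in labelled MDA-MB-231 EV livers and 49.9 ± 13.2 CPM in labelled MCF10A/miR-122 EV livers (log2 fold change -0.43, SE 0.14, adjusted p = 0.283), and it passed without MCF10A/miR-122 EV replicate 4 (adjusted p = 0.0315). Stellate and matrix genes had 0 of 23 and cholangiocyte genes 0 of 8 called by any of the 3 tools, both with 0 at an unadjusted p under 0.05. Cholangiocyte markers summed to 58.1 to 73.8 CPM in labelled MDA-MB-231 EV livers and 54.3 to 64.6 CPM in labelled MCF10A/miR-122 EV livers. Neutrophil markers, of which 6 of 14 were tested and 0 called, summed to 5.36 to 7.7 CPM in labelled MDA-MB-231 EV livers and 5.37 to 11 CPM in labelled MCF10A/miR-122 EV livers. Erythroid markers, 0 of 6 called, summed to 564, 1020.4, 581, 505, 622 and 724 CPM in replicates 1 to 6 of labelled MDA-MB-231 EV and 534, 1414, 975, 1805, 2038 and 478 CPM in those of labelled MCF10A/miR-122 EV. Hbb-b1, a beta-globin gene, was at 68.3, 115, 70.1, 58.3, 73.1 and 79.7 CPM in labelled MDA-MB-231 EV livers. Hbb-b1 stood at 59.5, 180.1, 118, 220.2, 229 and 54.1 CPM in labelled MCF10A/miR-122 EV livers, high in MCF10A/miR-122 EV replicates 2, 4 and 5 (log2 fold change -0.89, SE 0.46, adjusted p = 0.657). The other globin genes, Hba-a1, Hba-a2 and Hbb-b2, had log2 changes of -0.89 as well. At an unadjusted p under 0.05 the erythroid list had 1 higher and 0 lower. The 1 was Alas2, which went the other way (log2 fold change 0.56, SE 0.27, adjusted p = 0.599), and Klf1 had -0.01 (adjusted p = 0.995). The part of blood content in any result was not tested.

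Cxcl13, the chemokine that draws B cells through Cxcr5, was at 0.7, 0.468, 0.629, 1.05, 0.382 and 0.918 CPM in labelled MDA-MB-231 EV livers. Cxcl13 stood at 2.73, 3.73, 5.14, 2.57, 5.37 and 3.3 CPM in labelled MCF10A/miR-122 EV livers (log2 fold change -2.46, SE 0.29, adjusted p = 4.05e-05). Its groups did not overlap, the call held in all 12 fits that left out a library, and it was the 1 gene called of 20 chemokine and adhesion genes, with 2 higher and 4 lower at an unadjusted p under 0.05. Amica1 (Jaml), a junctional adhesion molecule of leukocytes, was at 0.733, 1.26, 0.695, 1.59, 1.53 and 1.09 CPM in labelled MDA-MB-231 EV livers. Amica1 stood at 17.9, 8.61, 3.43, 2.74, 3.89 and 8.07 CPM in labelled MCF10A/miR-122 EV livers (log2 fold change -2.69, SE 0.36, adjusted p = 0.000241). Gm10684, a predicted non-coding gene that overlaps exons of Amica1 on the opposite strand, was at 0.167, 0.36, 0.166, 0.371, 0.382 and 0.247 CPM in labelled MDA-MB-231 EV livers. Gm10684 stood at 5.98, 3.58, 1.21, 0.753, 0.8 and 2.85 CPM in labelled MCF10A/miR-122 EV livers (log2 fold change -3.15, SE 0.47, adjusted p = 0.00122). Both were highest in MCF10A/miR-122 EV replicate 1, the library with the least Saa1 of its group. The sources used here do not give the strand setting of the counting. Reads of Amica1 and Gm10684 therefore cannot be told apart, and the pair may be 1 signal.

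Gbp1 (Gbp2b), an interferon-inducible guanylate-binding protein gene, was at 1.37, 0.864, 0.828, 1.38, 0.954 and 1.27 CPM in labelled MDA-MB-231 EV livers. Gbp1 stood at 3.09, 2.45, 3.43, 2.23, 1.64 and 2.79 CPM in labelled MCF10A/miR-122 EV livers (log2 fold change -1.23, SE 0.20, adjusted p = 0.00439), and stayed called in all 12 fits. It was not joined by the interferon list: of 37 interferon-stimulated genes 0 were called by edgeR, DESeq2 or limma-voom, with 2 higher and 0 lower at an unadjusted p under 0.05, Iigp1 (log2 fold change 0.31, SE 0.09, adjusted p = 0.231) and Gbp6 (log2 fold change 0.68, SE 0.23, adjusted p = 0.358), both with positive values. Klrk1, which encodes the activating receptor NKG2D, was at 0.364 to 0.766 CPM in labelled MDA-MB-231 EV livers. Klrk1 stood at 0.856 to 1.43 CPM in labelled MCF10A/miR-122 EV livers (log2 fold change -1.07, SE 0.21, adjusted p = 0.0181). Klrk1 lost its call without MDA-MB-231 EV replicates 3 and 5 and without MCF10A/miR-122 EV replicates 1, 2 and 3 (adjusted p = 0.0517 to 0.0694). Ly9, a SLAM family receptor of lymphocytes and macrophages, was at 0.894 to 1.46 CPM in labelled MDA-MB-231 EV livers. Ly9 stood at 1.34 to 2.73 CPM in labelled MCF10A/miR-122 EV livers (log2 fold change -0.75, SE 0.16, adjusted p = 0.0454). Ly9 lost its call without MDA-MB-231 EV replicates 1, 2, 3, 4 and 6 and without MCF10A/miR-122 EV replicates 1, 2, 3 and 6 (adjusted p = 0.0503 to 0.155), and also in the fit of the 12 libraries alone (adjusted p = 0.167) and with no filter on low counts (adjusted p = 0.063).

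Of the myeloid genes called, 2 went in the opposite direction. Cd207, which encodes langerin, a lectin of Langerhans cells and other dendritic cells, was at 1.8, 1.48, 1.82, 3.24, 5.69 and 1.98 CPM in labelled MDA-MB-231 EV livers. Cd207 stood at 0.682, 0.722, 0.666, 0.377, 0.419 and 0.93 CPM in labelled MCF10A/miR-122 EV livers (log2 fold change 2.06, SE 0.39, adjusted p = 0.0175). The groups did not overlap, and MDA-MB-231 EV replicate 5 was the highest. Cd207 lost its call without MDA-MB-231 EV replicate 5 and without MCF10A/miR-122 EV replicate 3 (adjusted p = 0.0542 to 0.0672), and also without MDA-MB-231 EV replicates 1 and 5 together (adjusted p = 0.107). With MCF10A EVs Cd207 was at 0.713 to 4.46 CPM, so labelled MDA-MB-231 EV livers were not apart from all others. Gp49a (Lilr4b), an immunoglobulin-like receptor gene that shares 36.3% of its 32-base words with other genes, was at 4.03, 3.13, 2.85, 3.92, 4.36 and 4.63 CPM in labelled MDA-MB-231 EV livers. Gp49a stood at 2.176, 2.14, 2.63, 1.85, 2.67 and 1.44 CPM in labelled MCF10A/miR-122 EV livers (log2 fold change 0.83, SE 0.15, adjusted p = 0.0132). Its exons overlap those of Gm49339 on the same strand, so its counts may hold reads of that gene. Gp49a stayed called in all 12 fits that left out a library, but lost its call in the fit of the 12 libraries alone (adjusted p = 0.0759) and without MDA-MB-231 EV replicates 1 and 5 together (adjusted p = 0.107). Itgam (CD11b), an integrin gene of myeloid cells that also shares much of its sequence by this measure (67.9%), was at 2.53, 3.17, 1.95, 2.13, 3.21 and 3.04 CPM in labelled MDA-MB-231 EV livers. Itgam stood at 1.33, 1.04, 0.92, 0.822, 0.686 and 0.9 CPM in labelled MCF10A/miR-122 EV livers (log2 fold change 1.48, SE 0.46, adjusted p = 0.271), and passed where the fit held the 12 libraries alone (adjusted p = 0.00309). The platelet factor Pf4 (log2 fold change 1.25, SE 0.31, adjusted p = 0.103), the lectin receptor Clec4d (log2 fold change 2.76, SE 0.69, adjusted p = 0.11) and the pyrin gene Mefv (log2 fold change 1.49, SE 0.36, adjusted p = 0.0903), named after their values were seen, had positive values without passing. DESeq2 called Pf4 (adjusted p = 0.0194) and Clec4d (adjusted p = 0.0206), and in edgeR Mefv passed without MCF10A/miR-122 EV replicate 5 (adjusted p = 0.0349).

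In bile acid synthesis 2 of 15 genes were higher and 0 lower, both hydroxylases. Cyp8b1, the sterol 12-alpha-hydroxylase that directs synthesis to cholic acid, was at 85.9, 103, 121.8, 120.5, 146 and 157 CPM in labelled MDA-MB-231 EV livers. Cyp8b1 stood at 61.7, 58.2, 20.3, 58.7, 26.4 and 70 CPM in labelled MCF10A/miR-122 EV livers (log2 fold change 1.31, SE 0.26, adjusted p = 0.0214). The groups did not overlap, and replicates 3 and 5 of labelled MCF10A/miR-122 EV were the lowest. With MCF10A EVs it was at 116 to 221 CPM and with PBS at 91 to 213 CPM, above every labelled MCF10A/miR-122 EV library. Cyp7b1, the oxysterol 7-alpha-hydroxylase of the acidic pathway, was at 44.4, 82.3, 53.4, 63.1, 53.2 and 42 CPM in labelled MDA-MB-231 EV livers. Cyp7b1 stood at 32.4, 38.1, 31.2, 34.5, 25.4 and 30.5 CPM in labelled MCF10A/miR-122 EV livers (log2 fold change 0.82, SE 0.16, adjusted p = 0.0181), with MDA-MB-231 EV replicate 2 the highest. Cyp8b1 lost its call without MDA-MB-231 EV replicates 3, 5 and 6 and without MCF10A/miR-122 EV replicate 3 (adjusted p = 0.0503 to 0.0679), and also in the fit of the 12 libraries alone (adjusted p = 0.0761) and without MDA-MB-231 EV replicates 1 and 5 together (adjusted p = 0.0748). Cyp7b1 lost its call without MDA-MB-231 EV replicate 2 and without MCF10A/miR-122 EV replicates 3 and 6 (adjusted p = 0.054 to 0.065). Without MCF10A/miR-122 EV replicate 3, 0 genes of the list were called.

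Cyp7a1, the rate-limiting enzyme of the classic pathway, was at 16, 34.3, 25.6, 36.9, 52.3 and 68.5 CPM in labelled MDA-MB-231 EV livers. Cyp7a1 stood at 74.3, 92.3, 15.1, 25.3, 8.31 and 76.8 CPM in labelled MCF10A/miR-122 EV livers (log2 fold change -0.32, SE 0.56, adjusted p = 0.947). Its libraries spread widely within each group, and the sign of its fold change turned in limma-voom. Cyp27a1, the sterol 27-hydroxylase that opens the acidic pathway, had 408 ± 31.5 CPM in labelled MDA-MB-231 EV livers and 398 ± 40.1 CPM in labelled MCF10A/miR-122 EV livers. Its log2 change of 0.04 (adjusted p = 0.974) turned negative without MCF10A/miR-122 EV replicate 3. Cyp39a1, the 24-hydroxycholesterol 7-alpha-hydroxylase, was lower in every labelled MDA-MB-231 EV library, at 16.8, 12.7, 16.7, 15.2, 13.6 and 21.5 CPM, than in the lowest labelled MCF10A/miR-122 EV library, at 34.8, 27.5, 37, 24.1, 33.3 and 40.6 CPM over the group (log2 fold change -1.03, SE 0.23, adjusted p = 0.0571), and did not pass. It passed in DESeq2 (adjusted p = 0.00333), in the fit of the 12 libraries alone (adjusted p = 0.00668), without MDA-MB-231 EV replicate 6 (adjusted p = 0.047) and without MCF10A/miR-122 EV replicate 4 (adjusted p = 0.0298). Over the list, 5 genes were higher and 1 lower at an unadjusted p under 0.05. Of 17 bile acid sensing and transport genes 0 were called by any of the 3 tools, with 1 higher and 3 lower at an unadjusted p under 0.05, among them the sterol transporter genes Abcg5 (log2 fold change -0.46, SE 0.13, adjusted p = 0.2) and Abcg8 (log2 fold change -0.48, SE 0.18, adjusted p = 0.409) with negative values and the organic anion transporter gene Slco1a1 (log2 fold change 0.34, SE 0.11, adjusted p = 0.284) with a positive one.

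The remaining called genes share no list. Nudt19, a peroxisomal coenzyme A diphosphatase gene, was at 29.5, 32.3, 29, 28.9, 25.5 and 26.2 CPM in labelled MDA-MB-231 EV livers. Nudt19 stood at 36.7, 39.3, 47.9, 42.4, 47.7 and 41 CPM in labelled MCF10A/miR-122 EV livers (log2 fold change -0.57, SE 0.09, adjusted p = 0.00364), with no overlap and calls in all 12 fits. Atp1b1, a sodium pump subunit gene, was at 47.7 to 60.1 CPM in labelled MDA-MB-231 EV livers. Atp1b1 stood at 62.1 to 95.4 CPM in labelled MCF10A/miR-122 EV livers (log2 fold change -0.53, SE 0.10, adjusted p = 0.0181). Ppat, which encodes the enzyme of the committed step of purine synthesis, was at 13.6 to 18.4 CPM in labelled MDA-MB-231 EV livers. Ppat stood at 18.4 to 23.4 CPM in labelled MCF10A/miR-122 EV livers (log2 fold change -0.45, SE 0.09, adjusted p = 0.0314). Each of these 3 overlaps a gene on the opposite strand (B230322F03Rik, Nme7 and Paics), as does 4930413G21Rik (log2 fold change -0.90, SE 0.19, adjusted p = 0.0309), which overlaps Rbbp6, so their counts may hold reads of the partner. Atp1b1 lost its call without MDA-MB-231 EV replicates 1, 3 and 5 and without MCF10A/miR-122 EV replicates 1, 3 and 6 (adjusted p = 0.0502 to 0.0643), and also without MDA-MB-231 EV replicates 1 and 5 together (adjusted p = 0.135). Ppat lost its call without MDA-MB-231 EV replicates 1, 2, 3, 5 and 6 and without MCF10A/miR-122 EV replicates 1, 2 and 6 (adjusted p = 0.0662 to 0.114), and also in the fit of the 12 libraries alone (adjusted p = 0.0602) and without MDA-MB-231 EV replicates 1 and 5 together (adjusted p = 0.21). 4930413G21Rik lost its call without MDA-MB-231 EV replicates 1, 2, 5 and 6 and without MCF10A/miR-122 EV replicates 2, 3 and 6 (adjusted p = 0.0681 to 0.0904), and also in the fit of the 12 libraries alone (adjusted p = 0.0668) and without MDA-MB-231 EV replicates 1 and 5 together (adjusted p = 0.195).

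A channel gene and a transporter gene were among them. Kcna2, a voltage-gated potassium channel gene, was at 2.17, 1.62, 1.36, 2.19, 1.59 and 2.47 CPM in labelled MDA-MB-231 EV livers. Kcna2 stood at 5.62, 3.93, 6.57, 3.56, 2.4 and 3.96 CPM in labelled MCF10A/miR-122 EV livers (log2 fold change -1.19, SE 0.21, adjusted p = 0.00953), highest in MCF10A/miR-122 EV replicate 3. Kcna2 stayed called in all 12 fits that left out a library, but lost its call in the fit of the 12 libraries alone (adjusted p = 0.0575) and without MDA-MB-231 EV replicates 1 and 5 together (adjusted p = 0.0573). Abcc4, an organic anion export pump gene, had a log2 change of -0.86 (SE 0.16, adjusted p = 0.0175). Abcc4 lost its call without MDA-MB-231 EV replicate 2 and without MCF10A/miR-122 EV replicates 2 and 3 (adjusted p = 0.0517 to 0.0606), and also in the fit of the 12 libraries alone (adjusted p = 0.087). Fermt2, the kindlin gene of integrin activation, had the smallest called fold change, at 97.7, 93, 108, 94.4, 99.7 and 93.7 CPM in labelled MDA-MB-231 EV livers. Fermt2 stood at 74, 85.2, 81.7, 83.9, 71.1 and 71.1 CPM in labelled MCF10A/miR-122 EV livers (log2 fold change 0.33, SE 0.07, adjusted p = 0.0214). Fermt2 lost its call without MDA-MB-231 EV replicates 1, 2, 3 and 5 and without MCF10A/miR-122 EV replicates 1, 3, 5 and 6 (adjusted p = 0.0534 to 0.128), and also in the fit of the 12 libraries alone (adjusted p = 0.0945) and without MDA-MB-231 EV replicates 1 and 5 together (adjusted p = 0.168).

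St6galnac1, a sialyltransferase gene, was at 0.1, 0.252, 0.132, 0.405, 0.223 and 0.353 CPM in labelled MDA-MB-231 EV livers. St6galnac1 stood at 0.649, 0.809, 1.78, 0.205, 0.724 and 0.72 CPM in labelled MCF10A/miR-122 EV livers (log2 fold change -1.73, SE 0.38, adjusted p = 0.0431). Its neighbour BC018473 was at 2.83, 2.12, 1.46, 5, 1.59 and 3.85 CPM in labelled MDA-MB-231 EV livers. BC018473 stood at 14.1, 8.17, 16.6, 4.59, 10.9 and 13.6 CPM in labelled MCF10A/miR-122 EV livers (log2 fold change -2.01, SE 0.43, adjusted p = 0.0381). Both were highest in MCF10A/miR-122 EV replicate 3 and lowest in its replicate 4, within the range of the other group, and St6galnac1 shares 42.7% of its 32-base words with other genes. St6galnac1 lost its call without MDA-MB-231 EV replicates 1, 2, 3 and 5 and without MCF10A/miR-122 EV replicates 1, 2, 3 and 6 (adjusted p = 0.0588 to 0.15), and also in the fit of the 12 libraries alone (adjusted p = 0.193), without MDA-MB-231 EV replicates 1 and 5 together (adjusted p = 0.257) and in limma-voom (adjusted p = 0.117). BC018473 lost its call without MDA-MB-231 EV replicates 1, 2, 3 and 5 and without MCF10A/miR-122 EV replicates 1, 2, 3 and 6 (adjusted p = 0.0517 to 0.138), and also without MDA-MB-231 EV replicates 1 and 5 together (adjusted p = 0.235). Ccdc148, a coiled-coil protein gene, was at 0.43 to 1.02 CPM in labelled MDA-MB-231 EV livers. Ccdc148 stood at 1.07 to 1.97 CPM in labelled MCF10A/miR-122 EV livers (log2 fold change -1.04, SE 0.22, adjusted p = 0.0373). Ccdc148 lost its call without MDA-MB-231 EV replicates 1, 2, 3 and 5 and without MCF10A/miR-122 EV replicates 1, 3 and 6 (adjusted p = 0.0574 to 0.133), and also in the fit of the 12 libraries alone (adjusted p = 0.0683) and without MDA-MB-231 EV replicates 1 and 5 together (adjusted p = 0.235). Fam198a was higher, at 15.6, 10.4, 12.9, 11.3, 14.4 and 6.11 CPM in labelled MDA-MB-231 EV livers. Fam198a stood at 6.24, 4.71, 2.89, 7.26, 3.77 and 6.27 CPM in labelled MCF10A/miR-122 EV livers (log2 fold change 1.18, SE 0.26, adjusted p = 0.0431). Its exons overlap those of Gm49343 on the same strand, so its counts may hold reads of that gene. Fam198a lost its call without MDA-MB-231 EV replicates 1, 2, 3, 4 and 5 and without MCF10A/miR-122 EV replicates 1, 2, 3, 5 and 6 (adjusted p = 0.0654 to 0.134), and also in the fit of the 12 libraries alone (adjusted p = 0.0757), without MDA-MB-231 EV replicates 1 and 5 together (adjusted p = 0.284) and in limma-voom (adjusted p = 0.0849).

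Genes that differ between the sexes of mouse liver were compared as well, and 1 of them, Cyp7b1, passed. Male and female livers differ through the timing of growth hormone secretion. Of 21 male-biased genes 1 was higher (Cyp7b1) and 0 lower, with 8 higher and 0 lower at an unadjusted p under 0.05 (median 0.34). Of 27 female-biased genes 0 were called by edgeR, with 0 higher and 9 lower at an unadjusted p under 0.05 (median -0.11), 0 higher and 1 lower called by DESeq2 and 0 by limma-voom. The list members with the smallest p were the steroid dehydrogenase gene Hsd3b5 (log2 fold change 1.24, SE 0.33, adjusted p = 0.145) and Susd4 (log2 fold change 1.08, SE 0.31, adjusted p = 0.19) among the male-biased genes, and Cyp17a1, Sult2a2 and Sult2a1 among the female-biased ones. Cyp17a1, a steroid 17-alpha-hydroxylase gene, was at 9.76, 6.48, 10.1, 8.51, 11.4 and 6 CPM in labelled MDA-MB-231 EV livers. Cyp17a1 stood at 11.7, 19.9, 47.5, 19.4, 8.73 and 16 CPM in labelled MCF10A/miR-122 EV livers (log2 fold change -1.23, SE 0.28, adjusted p = 0.0551), and MCF10A/miR-122 EV replicate 3 lay far above the rest. It passed in DESeq2 (adjusted p = 0.00169). In edgeR it passed without MCF10A/miR-122 EV replicates 1, 4 and 5 (adjusted p = 0.0122 to 0.048), Hsd3b5 passed without MCF10A/miR-122 EV replicate 4 (adjusted p = 0.0306) and Sult2a2 passed without MDA-MB-231 EV replicate 4 (adjusted p = 0.0409). The sulfotransferase genes Sult2a2 (log2 fold change -1.20, SE 0.34, adjusted p = 0.182) and Sult2a1 (log2 fold change -1.19, SE 0.34, adjusted p = 0.19) share most of their sequence with other genes. In the growth hormone list 0 of 15 genes were called by any of the 3 tools, with 0 higher and 1 lower at an unadjusted p under 0.05, the female-biased repressor gene Cux2 (log2 fold change -0.92, SE 0.31, adjusted p = 0.32), and Igf1 had 0.17 (adjusted p = 0.702).

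Major urinary protein genes, a near-identical male-biased cluster, had 0 of 20 called by any of the 3 tools, with 18 higher and 0 lower at an unadjusted p under 0.05 (median 1.58). Their reads cannot be assigned to single copies, so the 20 values are largely 1 measurement. Mup1 (69.7% of its 32-base words shared; chosen after its values were seen) was at 908, 4829.6, 997, 1343, 1703 and 1211 CPM in labelled MDA-MB-231 EV livers. Mup1 stood at 478, 489, 764, 899, 799 and 145 CPM in labelled MCF10A/miR-122 EV livers (log2 fold change 1.62, SE 0.61, adjusted p = 0.413), highest in MDA-MB-231 EV replicate 2 and lowest in MCF10A/miR-122 EV replicate 6. Mup21 (log2 fold change 0.73, SE 0.22, adjusted p = 0.211) and Mup3 (log2 fold change 0.66, SE 0.22, adjusted p = 0.313) showed smaller differences.

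Of 25 circadian clock genes 0 were called by edgeR or DESeq2, with 1 higher and 4 lower at an unadjusted p under 0.05, 0 higher and 1 lower by limma-voom, and 0 higher and 2 lower in the edgeR fit of the 12 libraries alone. The hour of liver collection was not in the labels used here. Usp2, a deubiquitinase gene under clock control, was at 16.6, 20.1, 14, 29, 15.4 and 18.1 CPM in labelled MDA-MB-231 EV livers. Usp2 stood at 51.9, 31.5, 29, 30.9, 55.8 and 66.7 CPM in labelled MCF10A/miR-122 EV livers (log2 fold change -1.23, SE 0.32, adjusted p = 0.132), and it was the gene that limma-voom called (adjusted p = 0.0486). The fit of the 12 libraries alone called it too (adjusted p = 0.0498). The repressor gene Nr1d1 was at 140.3 ± 13.4 CPM in labelled MDA-MB-231 EV livers and 95.9 ± 25 CPM in labelled MCF10A/miR-122 EV livers (log2 fold change 0.55, SE 0.16, adjusted p = 0.188), and Cry1 had -0.65 (adjusted p = 0.389, and 0.0408 in the fit of the 12 libraries alone, where it passed). Glucocorticoid-responsive genes had 0 of 15 called by edgeR, 0 higher and 2 lower by DESeq2 and 0 by limma-voom, with 0 higher and 5 lower at an unadjusted p under 0.05 (median -0.30). Besides the metallothionein genes these included the kinase gene Sgk1 (log2 fold change -0.63, SE 0.17, adjusted p = 0.145), which DESeq2 called (adjusted p = 0.0405).

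Metabolic lists gave 0 calls in edgeR. Gluconeogenesis and fasting genes had 0 of 22 called by any of the 3 tools and 0 higher and 4 lower at an unadjusted p under 0.05 (median -0.19), with the serine dehydratase gene Sds at 186 ± 57 CPM in labelled MDA-MB-231 EV livers and 272 ± 38.2 CPM in labelled MCF10A/miR-122 EV livers (log2 fold change -0.55, SE 0.17, adjusted p = 0.284). Lipogenesis had 0 of 22 called by edgeR and 1 higher by both DESeq2 and limma-voom, the fatty acid elongase gene Elovl5, with 1 higher and 3 lower at an unadjusted p under 0.05. The lipogenic regulator gene Srebf1 had -0.39 (adjusted p = 0.542). Cholesterol synthesis had 0 of 24 called by any tool and 0 at an unadjusted p under 0.05 (median 0.27), fatty acid oxidation 0 of 35 called and 1 higher at an unadjusted p under 0.05, the lipid droplet gene Plin2 (log2 fold change 0.56, SE 0.18, adjusted p = 0.284), and xenobiotic metabolism 0 of 33 called by edgeR, 0 by limma-voom and 1 lower by DESeq2 (Cyp2a5, log2 fold change -0.94, SE 0.26, adjusted p = 0.155, called also in the edgeR fit of the 12 libraries alone, adjusted p = 0.0397), with 0 higher and 4 lower at an unadjusted p under 0.05. Of 27 unfolded protein response genes 0 were called by any tool, with 5 higher and 0 lower at an unadjusted p under 0.05, among them the chaperone gene Pdia4 (log2 fold change 0.31, SE 0.10, adjusted p = 0.263). Iron handling had 0 of 17 called by any tool and 0 higher and 2 lower at an unadjusted p under 0.05, of which the transferrin receptor gene Tfrc was at 26.9 ± 3.77 CPM in labelled MDA-MB-231 EV livers and 41.2 ± 7.19 CPM in labelled MCF10A/miR-122 EV livers (log2 fold change -0.62, SE 0.22, adjusted p = 0.395).

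Reported targets of miR-122 were followed because 1 of the 2 kinds of EV carries that name. In liver, miR-122 is the most abundant microRNA of hepatocytes and represses genes with matches to its seed. Of 39 tested targets 0 were called by edgeR, DESeq2 or limma-voom, and 0 were higher and 2 lower at an unadjusted p under 0.05 (median -0.0087 against 0.00166 over all genes). Those with the smallest p were the transporter gene Slc35a4 (log2 fold change -0.20, SE 0.08, adjusted p = 0.422), the glycogen synthase gene Gys1 (log2 fold change -0.26, SE 0.12, adjusted p = 0.576) and the nucleotidase gene Nt5c3 (log2 fold change 0.20, SE 0.10, adjusted p = 0.657). Aldolase A (Aldoa) was at 49.1 ± 12.4 CPM in labelled MDA-MB-231 EV livers and 56.7 ± 9.18 CPM in labelled MCF10A/miR-122 EV livers (log2 fold change -0.21, SE 0.13, adjusted p = 0.754), cyclin G1 (Ccng1) had 0.09 (adjusted p = 0.791) and the kinase gene Bckdk 0.09 (adjusted p = 0.902). A p that misses the threshold does not show that the groups were alike, and the miRNA itself was not measured. The labelled MDA-MB-231 EVs may have carried miR-122 too, so the comparison need not set EVs with it against EVs without it. The counts therefore do not show whether either kind of EV changed these targets.

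**Figure D5:**
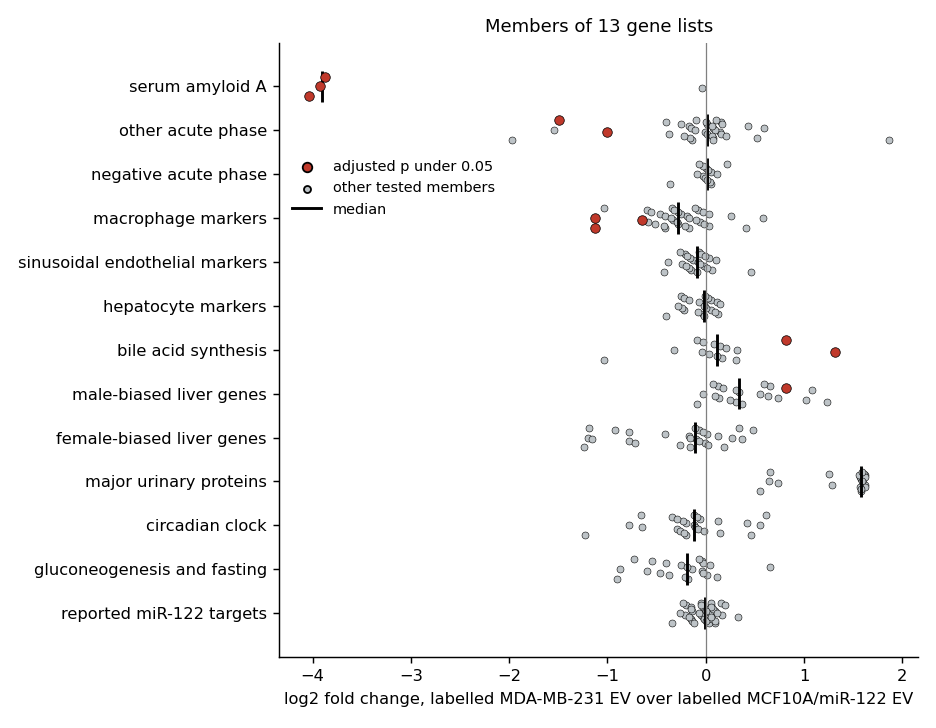
Log2 fold change of labelled MDA-MB-231 EV over labelled MCF10A/miR-122 EV (horizontal axis) of the tested members of 13 gene lists, with red points past an adjusted p of 0.05, grey points not past it and black lines at list medians. Serum amyloid A lies apart at the left, macrophage markers lie mostly left of 0, and the reported miR-122 targets sit around 0.

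Lists not described above had 0 called by edgeR. They were lymphocyte markers (5 tested, 0 higher and 1 lower at an unadjusted p under 0.05), MHC class II (7 tested, 0 higher and 1 lower), hepatocyte markers (22 tested, 0 higher and 2 lower), complement and coagulation (32 tested, 4 higher and 1 lower) and pancreatic acinar markers (3 tested, 1 higher and 0 lower). Heat shock (20 tested), cell cycle (29), Serpina3 cluster (11), ribosomal protein (32) and oxidative phosphorylation genes (29) had 0 at an unadjusted p under 0.05. Of these 10 lists, DESeq2 called 1 gene, Hpx among the hepatocyte markers, and limma-voom 0. Of all 39 lists, 7 held a called gene and 32 held 0, and 26 of those 32 held 0 by DESeq2 and limma-voom as well. Beyond the called genes, 81 genes had groups that did not overlap without passing. The 5 of them with the smallest p among the higher were Tfpi2, a protease inhibitor gene (log2 fold change 0.40, SE 0.09, adjusted p = 0.0551), Elovl5 (log2 fold change 0.34, SE 0.08, adjusted p = 0.0797), Trem1, 1300002E11Rik (log2 fold change 0.32, SE 0.08, adjusted p = 0.0903) and Fabp2, the intestinal fatty acid binding protein gene (log2 fold change 0.45, SE 0.11, adjusted p = 0.0903). Among the lower they were Gngt2, a G protein gamma subunit gene (log2 fold change -0.73, SE 0.16, adjusted p = 0.0551), Cyp39a1, BC023829 (log2 fold change -0.26, SE 0.06, adjusted p = 0.062), the matrix metalloproteinase gene Mmp27 (log2 fold change -1.39, SE 0.33, adjusted p = 0.0903) and Gmnn, which encodes geminin, an inhibitor of DNA replication licensing (log2 fold change -0.54, SE 0.13, adjusted p = 0.0903). Elovl5 was at 759, 852, 887, 804, 834 and 863 CPM in labelled MDA-MB-231 EV livers. Elovl5 stood at 649.7, 669.8, 520.5, 755, 749 and 601 CPM in labelled MCF10A/miR-122 EV livers, with MCF10A/miR-122 EV replicate 3 the lowest. DESeq2 called all 10 of these genes (adjusted p = 0.00333 to 0.031), where edgeR did not. Limma-voom called Tfpi2, Gngt2, BC023829 and Elovl5 (adjusted p = 0.0458 to 0.0486), and edgeR with a strict filter (at least 1 CPM in all 12 libraries) called Gngt2 (adjusted p = 0.0426) and BC023829 (adjusted p = 0.0499). In edgeR, Tfpi2 passed without MCF10A/miR-122 EV replicate 4 (adjusted p = 0.0222), as did Gngt2, BC023829 and Elovl5 without the same library (adjusted p = 0.0361, 0.0405 and 0.0247), and Elovl5 also without MCF10A/miR-122 EV replicate 5 (adjusted p = 0.0394).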

How the data were processed

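RNA was extracted from liver with TRIZOL, and the library kit was a stranded one for mRNA, per the labels. The authors deposited 1 table of 23240 rows with raw read counts per gene symbol. The build was mm9 and the tools named are TopHat2 and bcl2fastq 2.18.0.12, per the submitters' processing notes. How reads were counted (tool, annotation, strand, multi-mapping reads) is not given in the sources used, so multi-copy and overlapping genes are uncertain. The 27 rows that share 11 symbols (0.0744% of counts) were left out.

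Counts of all 24 libraries entered 1 edgeR 4.0.16 fit (R 4.3.3) with TMM scaling, filterByExpr and a mean per group, and the groups were compared with the two-sided quasi-likelihood F test, adjusted by Benjamini-Hochberg over 13773 genes. The threshold was an adjusted p of 0.05. The common biological coefficient of variation was 16.8%. CPM are on TMM-scaled library sizes, and SEs come from the F statistic. DESeq2 1.42.0 and limma-voom (limma 3.58.1), other scalings and filters, a replicate block and left-out libraries were alternatives. The scripts were tested on simulated data.

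The members, the 39 gene lists and the tests were chosen with earlier results of these data known, so lists are described by counts and medians without a test of their own. Named genes were every gene past the threshold, the 3 smallest p of each list, the 5 smallest p in each direction among genes not called whose groups did not overlap, and fixed markers, except where chosen after values were seen. Only part of them is printed, selected with values known, and a few genes, 2 of the 35 called among them, are not reported here. Each library is taken as 1 mouse, which the labels leave unsaid, and p-values would otherwise measure technical spread. Library totals of 21.3 to 33.7 M (mega) counts limit the precision of genes near 1 CPM. Shared sequence was measured on GENCODE M21 as the percent of 32-base words found in another gene, with 10% or more marking a multi-copy gene (166 of 168 named genes matched). Promoters came from RefSeq (27 of the 35 called genes had one).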

Additional observations from a re-analysis of the deposited data

Results flagged for a closer look

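Single libraries stood apart from the other 5 of their group in 8 of 92 gene and group combinations checked. The cut-off used is passed by about 1 in 20, or 4.6, where values are normally distributed. CPM need not be so distributed, and several of the genes vary together, so the number due to chance is not known. The combinations covered the 35 called genes and 11 others whose values are given library by library. In labelled MDA-MB-231 EV, replicate 3 had 80.6 CPM of Saa1 (next 35.3) and 56.8 CPM of Saa2 (next 20), and replicate 2 had 4830 CPM of Mup1 (next 1703). In labelled MCF10A/miR-122 EV, replicate 3 had 155 CPM of Cd5l (next 90.6), 42.2 CPM of Vsig4 (next 28.6), 50.8 CPM of Marco (next 27.4) and 47.5 CPM of Cyp17a1 (next 19.9). Replicate 1 of that group had 290 CPM of Saa4 (next 244). Cd5l, Vsig4 and Marco are macrophage genes, and without MCF10A/miR-122 EV replicate 3 the first 2 lost their calls (adjusted p = 0.0512 and 0.0904). Saa1 and Saa2 stayed called without MDA-MB-231 EV replicate 3, with log2 fold changes of -4.23 and -4.40.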

How the results depend on the processing

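The count of 35 genes (6 higher and 29 lower in labelled MDA-MB-231 EV livers) was 98 with DESeq2 (24 higher, 74 lower), 23 in the fit of the 12 libraries alone (18 lower) and 20 without MDA-MB-231 EV replicates 1 and 5, whose names have another stem (1 higher, 19 lower). It was 38 with limma-voom, 35 with DESeq2's size factors, 34 with no filter and 27 with the strict filter. Not all of these calls were among the 35 genes of the main fit. Shared with it were 35 of the 98 by DESeq2 and 15 of the 23 in the 12 libraries alone. Without MDA-MB-231 EV replicates 1 and 5, 19 of the 20 were shared. Limma-voom shared 32 of its 38, DESeq2's size factors 35 of 35, no filter 34 of 34 and the strict filter 25 of 27. Leaving out 1 library at a time gave 13 to 82 called, 1 to 16 higher and 12 to 66 lower. Of the 35 genes, 12 were called in every such fit, 10 in every alternative in which they were tested (Saa1, Saa2, Saa3, Cxcl13, Lcn2, Amica1, Gm10684, Gbp1, Clec4a2 and Nudt19), and 0 turned sign in any. Among genes not called, the log2 fold change turned sign for Saa4 (-0.095 to 0.020 over fits that left out 1 library), for Cyp27a1 (-0.013 to 0.067) and, in limma-voom, for Cyp7a1 (0.014). The cause was not tested. Genes under about 1 CPM rest on few reads, and small differences there were not detectable at this depth.

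The labels do not say whether the replicate numbers pair the samples. Deviations of same-numbered libraries correlated at -0.43 to 0.374, with 1 of 6 pairs over 0.1 and 1 of 6 matching best both ways. Such correlations show no general pairing but cannot exclude one, for a pairing need not show in them. With the replicate number as a block, 35 genes were called (9 higher, 26 lower), 29 of them shared. The 6 lost were Emr1, Vsig4, Atp1b1, Ly9, Ccdc148 and St6galnac1 (adjusted p = 0.0564 to 0.131).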
